A study of Homo sapiens with 6 samples.

Results

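The genes described here are 39 members of the intrinsic and extrinsic apoptosis machinery: the BCL2 family, the apoptosome and caspases, the death receptors with their adaptors, the inhibitor of apoptosis proteins and the proteins that mitochondria release. They were chosen by symbol, with earlier results of these data known, so their counts are descriptive. All 39 were found among the 60643 genes of the deposited table, each in a single row. In the intrinsic pathway, BH3-only proteins sense damage or stress and either bind the anti-apoptotic BCL2 proteins or activate BAX and BAK, which then open the outer mitochondrial membrane. Cytochrome c released in this way assembles APAF1 and caspase-9 into the apoptosome. In the extrinsic pathway, ligand-bound receptors of the tumour necrosis factor (TNF) family recruit FADD and caspase-8, and BID connects both pathways.

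The values came from 6 RNA sequencing libraries of HCT116, a widely used human colorectal cancer cell line with an intact p53 gene. All cells carried a doxycycline-inducible short hairpin RNA against CAPG, an actin filament capping protein. In 3 libraries the cells were untreated (labelled WT), and in 3 they had received doxycycline for 3 days at 100 ng/ul, the unit as the labels give it (labelled CAPG Knockdown). The title of the series connects the comparison to apoptosis, ferroptosis and p53. Libraries given doxycycline without the hairpin were not analysed here, so the effects of the drug and of the hairpin cannot be told apart. The labels name the same numbered hairpin for all 6 libraries. Its effects on genes other than CAPG cannot be told apart from those of lower CAPG. The labels do not say whether the transfected line was a single clone or whether replicates were separate cultures, and the spread that the p-values rest on may therefore be technical.

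Levels are in FPKM, that is, fragment counts divided by transcript length and by library size, a scale on which genes can be compared per length. Estimated depth was 13900000 to 18400000 fragments per library, at which 3 fragments in a transcript of 1 kb correspond to 0.163 to 0.215 FPKM (counting error only). CAPG itself was at 57.2 ± 3.75 FPKM without and 8.73 ± 1.08 FPKM with doxycycline (SD, n = 3 each), and its groups did not overlap (log2 change -2.59, SE 0.10, limma adjusted p = 7.24e-06). The FPKM total of treated replicate 3 was 586911, above the range of 521832 to 536037 over the other 5 libraries. Of 9 epithelial markers 6 reached the tested range, with KRT8 at 628 and 727 FPKM. Of the intestinal markers among them, the transcription factor gene CDX2 was at means of 4.52 and 5.42 FPKM, and VIL1, LGALS4 and KRT20 stayed under 1 FPKM. Summed over the list, epithelial markers lay between 1659 and 1861 FPKM without and between 1868 and 2202 FPKM with doxycycline. All 6 tested had positive changes (median log2 change 0.199), and EPCAM, an epithelial adhesion molecule, passed the threshold (190 to 241 FPKM, log2 change 0.34, limma adjusted p = 0.0401), a call lost in 5 of 6 fits with a library left out (adjusted p up to 0.139). The part of this shift in the members' values was not tested. All 8 leukocyte and all 6 endothelial markers stayed under 1 FPKM in every library, and so did 7 of 8 fibroblast markers, COL1A1 being the exception (9.06 and 8.37 FPKM). In such bulk libraries a smaller number of cells of a type and less RNA per cell cannot be told apart.

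Levels of the members ranged from 0 to 76.4 FPKM. MCL1 had the highest mean level of the 39 and TNFSF10, BCL2A1, HRK and BCL2 the lowest, at or under about 1 FPKM. These 4 genes did not reach 1 FPKM in at least 3 libraries and were not tested. TNFSF10, which encodes the death ligand TRAIL, was listed at 0 in untreated replicate 1 and in all 3 treated libraries and reached 0.286 FPKM at most. BCL2A1, an anti-apoptotic protein best known from blood cells, was listed at 0 in 4 libraries and at 0.09 and 0.0897 FPKM in untreated replicate 1 and treated replicate 2. HRK, a BH3-only gene of neurons, was at 0.631 to 0.745 FPKM without and 0.668 to 0.887 FPKM with doxycycline. BCL2, the founding anti-apoptotic member, was at 0.995, 0.801 and 1.04 FPKM without and at 0.808, 0.664 and 0.774 FPKM with doxycycline, so its groups overlapped by a narrow margin.

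**Figure D1:**
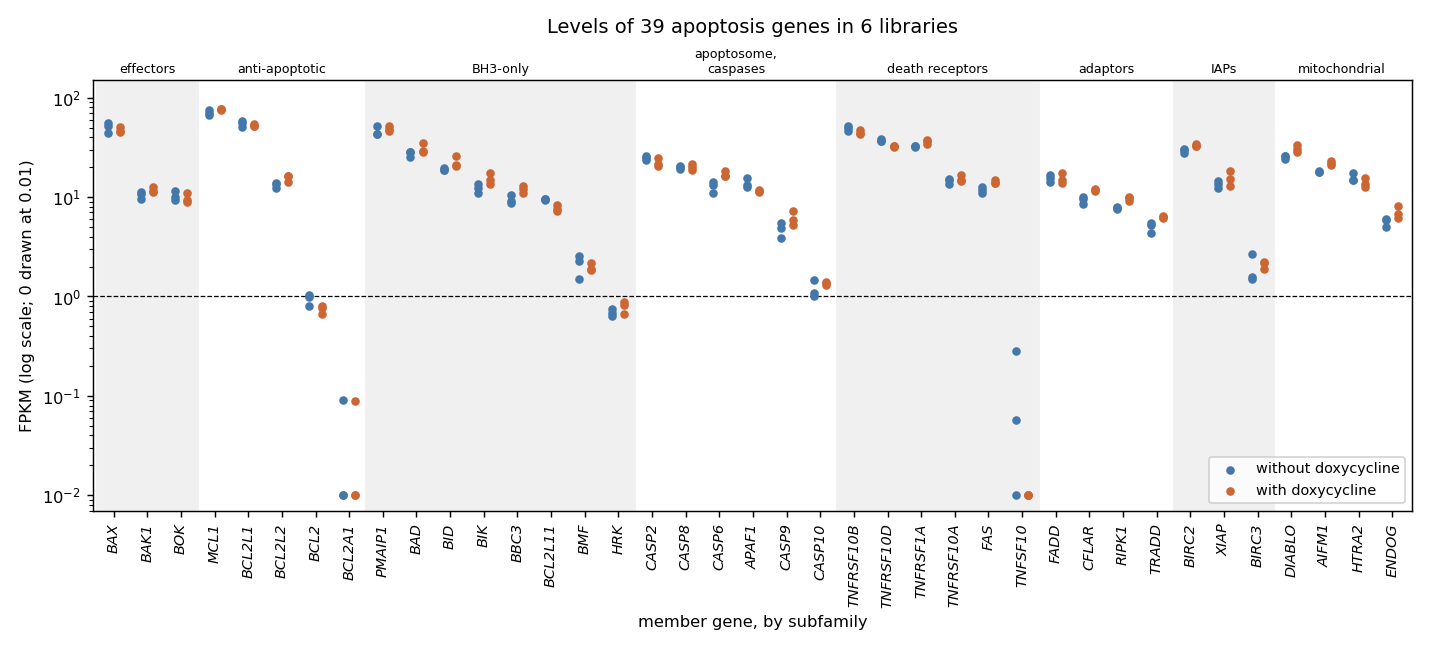
FPKM (log axis) of the 39 members by subfamily, 1 point per library, without (blue) and with (orange) doxycycline; values of 0 are drawn at 0.01 and the dashed line marks 1 FPKM. The groups lie close together for every member above that line, and BCL2, BCL2A1, HRK and TNFSF10 lie around or below it.

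None of the 35 tested members passed the threshold. With limma, 0 were called higher and 0 lower at an adjusted p of 0.05, where 8.46% of all 14475 tested genes were called, 3.69% as higher and 4.77% as lower. Before adjustment, 12 members with a positive and 3 with a negative change had a limma p under 0.05. That was 42.9% of those tested, beside 27.9% over all tested genes (13.6% positive and 14.3% negative). The groups did not overlap in 18 members, 15 with higher and 3 with lower treated values, or 51.4%, where the share over all tested genes was 34.5% (17.0% higher and 17.5% lower). A positive change was found in 24 of 35 members, where 49.6% of all tested genes had one. The median log2 change of the members was 0.15 and that of all tested genes -0.003, while the median size regardless of sign was 0.18 and 0.161. The smallest adjusted p among members belonged to CASP6 (0.0587).

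Treated replicate 3, the library with the largest FPKM sum, was the highest of the 3 treated libraries in 25 of 35 members, and in 12 of the 12 with a positive change and an unadjusted p under 0.05. Over all tested genes it was the highest in 46.3%, and in 65.2% of the 1963 genes with such a positive change. With every library scaled to the same FPKM total, the counts at an unadjusted p under 0.05 were 7 positive and 5 negative, with a median of 0.10 for the members and -0.05 for all genes. Without treated replicate 3 they were 10 and 3, with a median of 0.098. The part of this library in the member counts was not tested further.

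**Figure D2:**
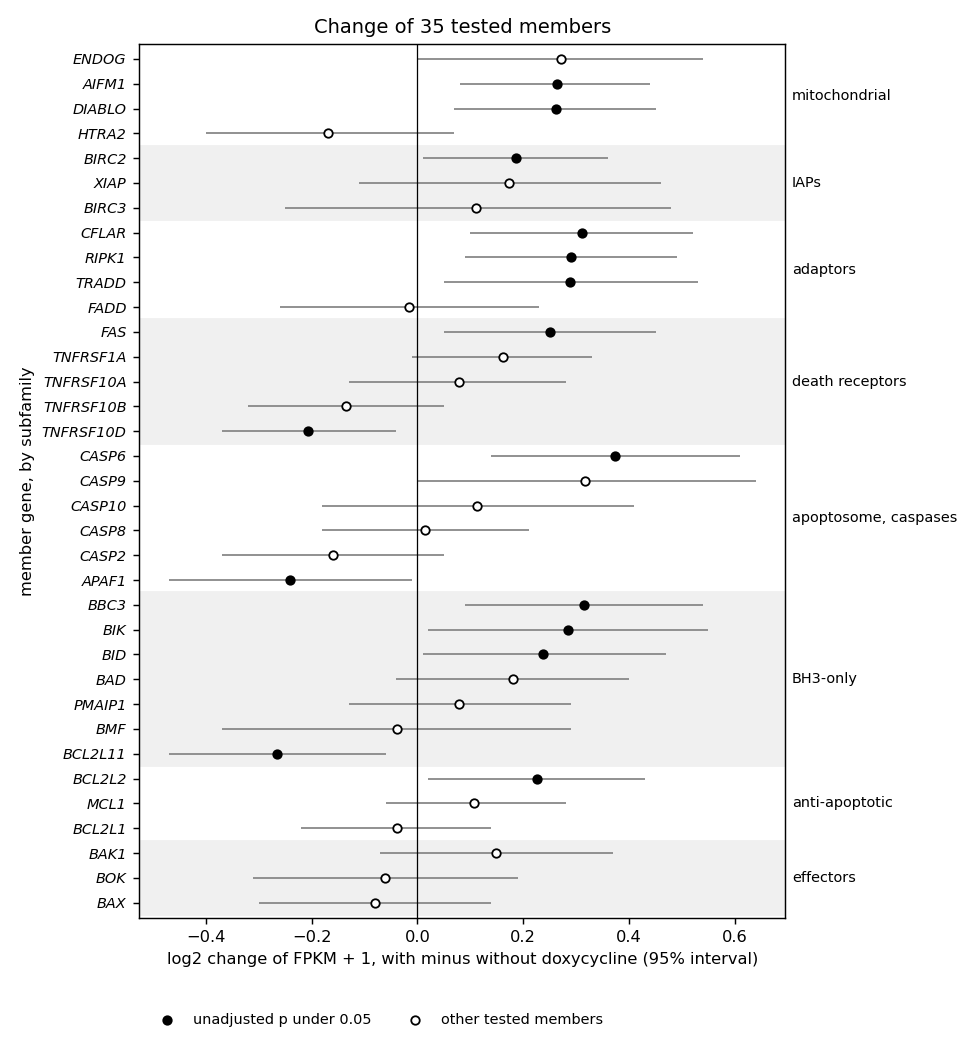
Log2 change of FPKM + 1 (with minus without doxycycline) of the 35 tested members by subfamily, with unadjusted 95% intervals from limma; filled points have an unadjusted p under 0.05. Estimates lie between -0.27 (BCL2L11) and 0.37 (CASP6), with 24 of them above 0.

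Promoter windows were available for 31 of the 39 members in RefSeq (GRCh38.p14), from 250 bases before to 50 after a single RefSeq start per gene. These windows were searched on both strands for 8 known elements. Of the members with an unadjusted p under 0.05, BCL2L2, BIK, TNFRSF10D and TRADD had no window, and 4 of the others held one of the elements. The share of all windows that hold any of the 8 was not counted, so this count has no background beside it. The windows of these 4 are shown because they put the members' sequences beside their values. The element is in capitals. In CFLAR (chr2:201118466-201118765, + strand) it is the NF-kB consensus, 97 to 88 bases before the start. In RIPK1 (chr6:3063717-3064016, + strand) it is the TATA element TATAAA, 30 to 25 bases before the start. In BIRC2 (chr11:102346964-102347263, + strand) it is the cyclic AMP response element TGACGTCA, which begins 7 bases before the start. In BCL2L11 (chr2:111120664-111120963, + strand) it is the FOXO element TGTTTAC on the opposite strand, 223 to 217 bases before the start. The windows of CFLAR and BCL2L11 lie inside the gene loci of the deposited table, which begin at 201116154 and 111119378.
CFLAR: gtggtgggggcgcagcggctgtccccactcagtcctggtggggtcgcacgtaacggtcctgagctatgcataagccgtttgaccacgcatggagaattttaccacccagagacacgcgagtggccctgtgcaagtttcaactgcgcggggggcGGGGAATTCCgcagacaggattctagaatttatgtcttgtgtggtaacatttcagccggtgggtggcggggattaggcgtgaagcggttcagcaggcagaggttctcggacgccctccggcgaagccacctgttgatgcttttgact
RIPK1: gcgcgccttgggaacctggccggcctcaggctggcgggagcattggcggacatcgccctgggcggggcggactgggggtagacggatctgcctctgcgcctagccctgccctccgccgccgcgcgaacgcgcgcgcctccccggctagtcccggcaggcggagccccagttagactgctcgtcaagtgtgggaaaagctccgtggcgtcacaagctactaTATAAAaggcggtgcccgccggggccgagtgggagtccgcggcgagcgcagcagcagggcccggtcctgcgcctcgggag
BIRC2: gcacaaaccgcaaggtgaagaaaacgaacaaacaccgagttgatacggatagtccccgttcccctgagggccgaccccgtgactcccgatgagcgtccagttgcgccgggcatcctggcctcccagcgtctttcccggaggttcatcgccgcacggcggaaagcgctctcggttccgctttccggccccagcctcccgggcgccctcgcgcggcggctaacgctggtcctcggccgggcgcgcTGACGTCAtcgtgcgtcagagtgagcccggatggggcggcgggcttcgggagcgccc
BCL2L11: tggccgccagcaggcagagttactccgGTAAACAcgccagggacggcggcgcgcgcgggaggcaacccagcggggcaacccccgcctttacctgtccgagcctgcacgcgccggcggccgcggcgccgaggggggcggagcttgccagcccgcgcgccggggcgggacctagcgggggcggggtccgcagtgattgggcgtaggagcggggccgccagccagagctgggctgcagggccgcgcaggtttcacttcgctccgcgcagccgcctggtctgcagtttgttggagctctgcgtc

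Of 27305 promoter windows of the same length, 5.72% held the NF-kB consensus, 12.0% TATAAA, 1.98% TGACGTCA and 3.41% TGTTTAC. Among the 31 member windows, 3 held the NF-kB consensus (BIRC3, BMF and CFLAR), 4 TATAAA (BCL2A1, BCL2L1, RIPK1 and TNFSF10), 1 TGACGTCA and 1 TGTTTAC. Of those that share an element with a printed window, BIRC3, BMF and BCL2L1 had log2 changes of 0.11, -0.04 and -0.04 with overlapping groups. BCL2A1 and TNFSF10 were not tested. The E2F element TTTCCCGC was in 0 of 31 member windows and in 1.66% of all. The composite element of ATF4 and CHOP, TGATGNAAN, was in 2 of 31 (BCL2A1 and HRK, both untested) and in 3.67% of all. A p53 half-site consensus was found in 1 member window (BAK1) and in 6.54% of all. A full p53 element, taken as a pair of half-sites up to 13 bases apart with intact cores and at most 3 mismatches in 20 bases, was in 0 of 31 and in 4.5% of all. These counts say only which letters lie in these windows, and other starts of the same genes were not searched. Member windows had a median G+C content of 66.3% and a median of 25 CpG dinucleotides, where the medians of all windows were 58.3% and 14.

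The pore-forming effectors BAX, BAK1 and BOK had overlapping groups, and their differences were within the spread between libraries. BAX was the most abundant of them, at 55.5, 51.9 and 44.4 FPKM without doxycycline and 46.6, 45.6 and 50.8 FPKM with it. The 3 treated values lay inside the range of the untreated ones. Its log2 change was -0.08 with a 95% interval from -0.30 to 0.14 (limma adjusted p = 0.639). BAK1 had means of 10.6 and 11.8 FPKM (interval -0.07 to 0.37) and BOK means of 10.2 and 9.75 FPKM (interval -0.31 to 0.19). All 3 intervals include 0 and stay within a log2 change of 0.37 in either direction.

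Among the anti-apoptotic BCL2 proteins, MCL1 and BCL2L1, which encodes BCL-XL, were the most abundant, and of the 3 tested genes BCL2L2, which encodes BCL-W, had the largest change. MCL1 was at 66.1, 70.5 and 74.4 FPKM without and 76.4, 76.1 and 74.7 FPKM with doxycycline. The groups were apart by less than 1 FPKM, and the limma adjusted p was 0.392 (log2 change 0.11, interval -0.06 to 0.28). BCL2L1 had means of 54.5 ± 3.77 and 53 ± 1.49 FPKM (SD, n = 3 each), with an interval from -0.22 to 0.14. BCL2L2 was at 13.4, 13.8 and 12.3 FPKM without and 14.3, 16.1 and 16.3 FPKM with doxycycline. Every treated library was above every untreated one, but the gene did not pass the threshold (log2 change 0.23, SE 0.09, limma adjusted p = 0.147).

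The BH3-only genes were mixed in direction: of 7 tested, 5 had positive and 2 negative changes, and their median was 0.18. PMAIP1, which encodes NOXA, an MCL1-binding protein induced by p53 and by the integrated stress response, was the most abundant. It was at 43, 43.2 and 51.9 FPKM without and 46.1, 48.1 and 51.3 FPKM with doxycycline, with overlapping groups (log2 change 0.08, interval -0.13 to 0.29, limma adjusted p = 0.633). BBC3 encodes PUMA, a p53 target that can bind every anti-apoptotic BCL2 protein. It was at 10.5, 9.10 and 8.77 FPKM without and 11.1, 12.1 and 12.8 FPKM with doxycycline. Its groups did not overlap, with a ratio of means of 1.27 (log2 change 0.32, SE 0.10, limma adjusted p = 0.0844).

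BCL2L11 encodes BIM, a direct activator of BAX and BAK whose gene is controlled by FOXO factors and ERK signalling. It was at 9.45, 9.59 and 9.38 FPKM without and 8.23, 7.64 and 7.28 FPKM with doxycycline. All treated values were below all untreated ones, the reverse of BBC3, and the estimate was the lowest of all members (log2 change -0.27, SE 0.09, limma adjusted p = 0.0944). BID, the caspase-8 substrate, was at 19.4, 18.5 and 18.6 FPKM without and 20.3, 21.2 and 26 FPKM with doxycycline. The highest value came from treated replicate 3, and the limma adjusted p was 0.167 (log2 change 0.24). BIK, a BH3-only protein of the endoplasmic reticulum, was at 13.5, 11.1 and 12.2 FPKM without and 14.7, 13.4 and 17.5 FPKM with doxycycline, so untreated replicate 1 was above treated replicate 2 (log2 change 0.28, limma adjusted p = 0.148). BAD, which growth factor signalling holds in check by phosphorylation, had means of 27.2 and 31.0 FPKM. BMF, a BH3-only protein of cell detachment, had means of 2.09 and 1.98 FPKM.

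Of the apoptosome and the caspases, CASP6 was the member with the largest change. CASP6 encodes caspase-6, which cleaves nuclear lamins. It was at 11.1, 14 and 13.3 FPKM without and 16.1, 16.2 and 18.2 FPKM with doxycycline. The groups did not overlap, the ratio of means was 1.31, and the limma adjusted p of 0.0587 missed the threshold (log2 change 0.37, SE 0.11, interval 0.14 to 0.61). APAF1, the scaffold of the apoptosome, lay on the other side. It was at 12.5, 13.1 and 15.7 FPKM without and 11.2, 11.4 and 11.7 FPKM with doxycycline (log2 change -0.24, SE 0.10, limma adjusted p = 0.159). Its treated libraries were close together and all below the untreated ones. CASP9, the partner that APAF1 activates, had means of 4.74 ± 0.79 and 6.15 ± 1.05 FPKM (SD, n = 3 each) with overlapping groups.

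CASP2, a caspase activated on the PIDDosome, was the most abundant caspase among the members. It was at 26, 24.5 and 23.7 FPKM without and 24.6, 21.3 and 20.4 FPKM with doxycycline, with treated replicate 1 inside the untreated range (log2 change -0.16, limma adjusted p = 0.302). CASP8, the initiator caspase of the death receptors, had means of 19.8 ± 0.777 and 20.1 ± 1.55 FPKM (SD, n = 3 each). Its estimate of 0.01 had an interval from -0.18 to 0.21. CASP10, its close relative, was far lower, at means of 1.20 and 1.36 FPKM. These 2 genes and CFLAR lie next to each other on chromosome 2 (GRCh38), CFLAR from 201116154 to 201176687, CASP10 from 201182898 to 201229406 and CASP8 from 201233443 to 201287711, with gaps of 6210 and 4036 bases. Their log2 changes were 0.31, 0.11 and 0.01 in that order.

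Among the death receptors, FAS and TNFRSF10D differed in opposite directions and neither passed the threshold. FAS, the receptor of FAS ligand and a p53 target, was at 12.6, 11.1 and 11.7 FPKM without and 13.9, 13.8 and 14.9 FPKM with doxycycline (log2 change 0.25, SE 0.09, limma adjusted p = 0.105). TNFRSF10D encodes a decoy receptor for TRAIL with a truncated death domain. It was at 36.8, 38.4 and 36.8 FPKM without and 32.0, 32.3 and 32.4 FPKM with doxycycline. The treated values agreed within 0.5 FPKM and lay below all untreated ones (log2 change -0.21, SE 0.07, limma adjusted p = 0.105). TNFRSF10B, which encodes the signalling TRAIL receptor DR5, a target of p53 and CHOP, was the most abundant receptor. It was at 51.8, 46.2 and 49.7 FPKM without and 42.9, 47.2 and 44.1 FPKM with doxycycline. Treated replicate 2 was above the lowest untreated library, and the log2 change of -0.14 had an interval from -0.32 to 0.05 (limma adjusted p = 0.308).

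TNFRSF10A, which encodes the second signalling TRAIL receptor DR4, had means of 14.5 and 15.4 FPKM (interval -0.13 to 0.28). TNFRSF1A, the main TNF receptor, had means of 32.2 ± 0.352 and 36.2 ± 1.69 FPKM (SD, n = 3 each), with groups that did not overlap (log2 change 0.16, limma adjusted p = 0.201). The TRAIL receptor genes form a cluster on chromosome 8 (GRCh38) between 23020133 and 23225102. In the order of their positions TNFRSF10B had a log2 change of -0.14, the decoy receptor gene TNFRSF10C 0.30, TNFRSF10D -0.21 and TNFRSF10A 0.08. The estimates of neighbours thus alternated in sign, but only the interval of TNFRSF10D excluded 0 (TNFRSF10C: -0.01 to 0.61). This order of signs was not tested. TNFRSF10C, which is outside the 39 members, was at means of 4.47 and 5.79 FPKM with overlapping groups. The receptors are related in sequence, and the labels do not say how reads shared between them were counted.

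The adaptors and regulators of the death receptors had the highest median of the 8 subfamilies, 0.29 over 4 tested genes. A positive change with an unadjusted p under 0.05 was found in 3 of the 4, beside 13.6% of all tested genes. None of the 4 passed the threshold. CFLAR encodes c-FLIP, which competes with caspase-8 for FADD. It was at 9.98, 9.55 and 8.46 FPKM without and 11.6, 11.8 and 12.0 FPKM with doxycycline (ratio of means 1.26, log2 change 0.31, SE 0.09, limma adjusted p = 0.0686). RIPK1, the kinase that sorts TNF receptor signals between survival and death, was at 7.85, 7.67 and 7.60 FPKM without and 9.19, 9.74 and 10.0 FPKM with doxycycline. The untreated values lay within 0.3 FPKM of each other and every treated value was higher by more than 1 FPKM (log2 change 0.29, SE 0.09, limma adjusted p = 0.0713). TRADD, the adaptor of the TNF receptor, was at 5.45, 5.25 and 4.30 FPKM without and 6.18, 6.35 and 6.38 FPKM with doxycycline (log2 change 0.29, SE 0.11, limma adjusted p = 0.116). FADD, the adaptor of FAS and of the TRAIL receptors and the most abundant of the subfamily, was at 16.6, 15.5 and 14.2 FPKM without and 14.9, 13.7 and 17.3 FPKM with doxycycline. Its groups overlapped fully (log2 change -0.02, interval -0.26 to 0.23).

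**Figure D3:**
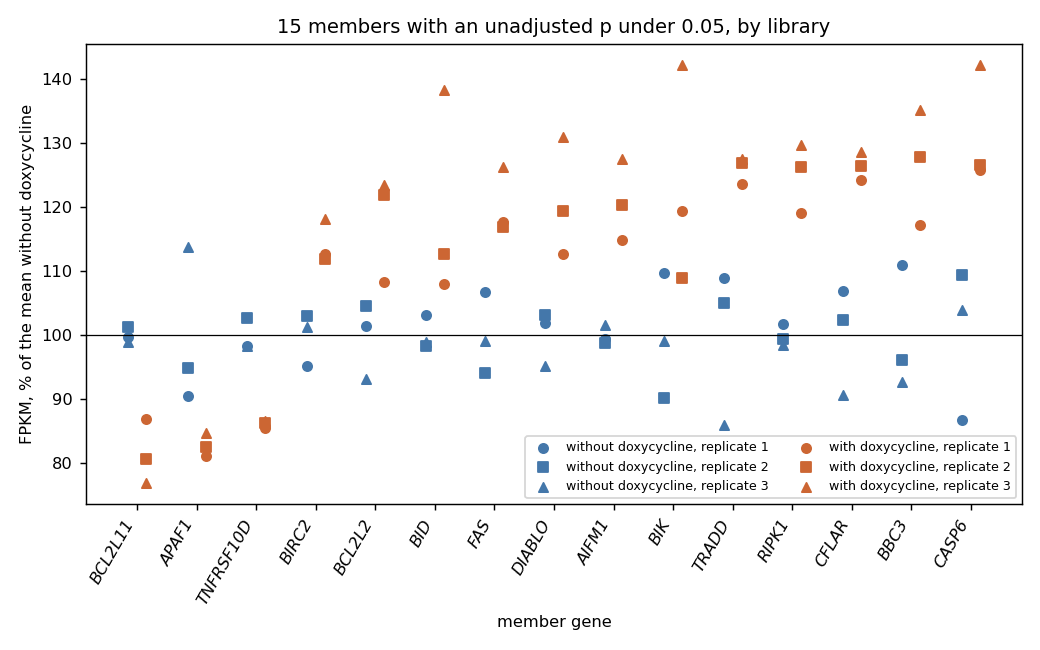
FPKM of the 15 members with an unadjusted p under 0.05, as a percentage of the mean without doxycycline, 1 point per library (blue without, orange with doxycycline; marker shape gives the replicate number). BCL2L11, APAF1 and TNFRSF10D have treated points below the untreated ones, and in the other 12 the highest treated point is that of replicate 3.

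The inhibitor of apoptosis proteins XIAP, BIRC2 and BIRC3 all had positive estimates, with a median of 0.17. BIRC2 encodes cIAP1, a ubiquitin ligase for RIPK1, and was the most abundant. It was at 27.8, 30.1 and 29.6 FPKM without and 32.9, 32.7 and 34.5 FPKM with doxycycline. The groups did not overlap (log2 change 0.19, SE 0.08, limma adjusted p = 0.149). XIAP, the direct inhibitor of caspase-9 and of the executioner caspases, was at 12.4, 14.4 and 13.6 FPKM without and 18.3, 15.2 and 12.8 FPKM with doxycycline, so the treated libraries spread more widely than the groups differed. BIRC3, which encodes cIAP2 and lies 7807 bases from BIRC2 on chromosome 11, had means of 1.91 ± 0.658 and 2.10 ± 0.192 FPKM (SD, n = 3 each).

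Of the mitochondrial proteins, 3 of 4 had treated libraries above all untreated ones, as did 17.0% of all tested genes, and the median was 0.26. In these 3 genes treated replicate 3 was the highest library. DIABLO encodes SMAC, which relieves caspases of their inhibitors, and was the most abundant. It was at 25.7, 26 and 24 FPKM without and 28.4, 30.1 and 33 FPKM with doxycycline (ratio of means 1.21, log2 change 0.26, SE 0.09, limma adjusted p = 0.0878). AIFM1, an oxidoreductase of the intermembrane space that can move to the nucleus during cell death, was at 18, 17.9 and 18.4 FPKM without and 20.8, 21.8 and 23.1 FPKM with doxycycline. Its treated values were all higher by more than 2 FPKM (log2 change 0.26, SE 0.08, limma adjusted p = 0.0744). The nuclease gene ENDOG had means of 5.63 and 7.03 FPKM without overlap (limma adjusted p = 0.182). HTRA2, a protease of the intermembrane space that also binds XIAP, was the exception, with means of 15.7 ± 1.45 and 13.9 ± 1.42 FPKM (SD, n = 3 each) and overlapping groups.

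The 0 calls among members depended on 2 of the 16 other settings tried. With quantile normalization CFLAR was called higher (adjusted p = 0.0456). After a correction for transcript length and G+C content, chosen after seeing the data, 8 members were called higher (RIPK1, AIFM1, BBC3, CASP6, DIABLO, CFLAR, BCL2L2 and TRADD) and 2 lower (TNFRSF10D and BCL2L11), with limma adjusted p between 0.0165 (RIPK1) and 0.048 (BCL2L11). Under that correction 19.0% of all tested genes were called, beside 8.46% without it. Of the log2 changes of these 10 members, that of CFLAR moved most, from 0.31 to 0.40. RIPK1 was at 0.32 (0.29 uncorrected), CASP6 at 0.34 (0.37) and BCL2L11 at -0.22 (-0.27). With any 1 of the 6 libraries left out, 0 members were called, but these fits called only 1.54% to 6.91% of all tested genes.

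**Figure D4:**
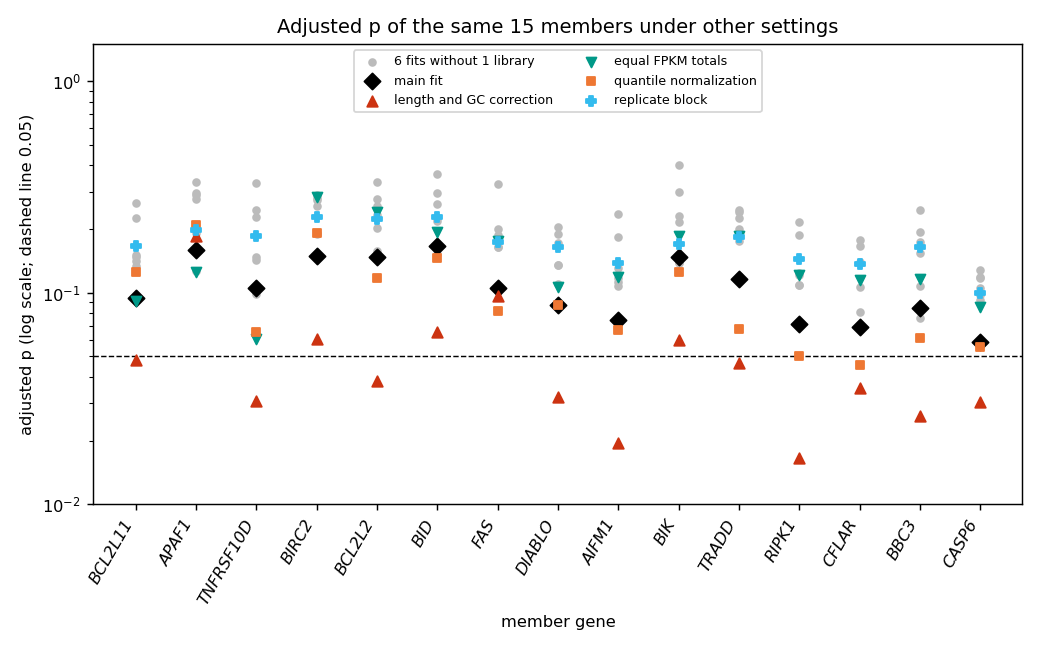
Adjusted p (log axis) of the 15 members with an unadjusted p under 0.05, in the main fit (black) and under other settings, with the dashed line at 0.05. Points below the line come from the length and G+C correction (10 members) and from quantile normalization (CFLAR).

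Of 52 other cell death genes, listed from textbook knowledge, 42 were tested in the same fit. Of these 42, 2 rose and 2 fell, or 9.52%, where 8.46% of all tested genes were called, and their median log2 change was 0.06. DEDD2, a nuclear protein with a death effector domain, rose from 16.7, 16.0 and 14.3 FPKM to 20.8, 19.9 and 23.6 FPKM (log2 change 0.43, SE 0.10, limma adjusted p = 0.0326). BNIP3 and BNIP3L, mitophagy receptors that are induced by hypoxia, fell from means of 42.1 and 56.7 FPKM to 33.4 and 45.0 FPKM (log2 changes -0.33 and -0.33, limma adjusted p = 0.0328 and 0.043). The groups did not overlap in any of these 3, which were picked by the threshold, or in 34.5% of all tested genes. BNIP3 lost its call without each library except treated replicate 3 (adjusted p up to 0.108), and DEDD2 and BNIP3L without any 1 of the 6 (up to 0.104 and 0.183).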

How the data were processed

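RNA sequencing libraries of 6 HCT116 samples were grouped by their titles (3 without, 3 with doxycycline). The deposited table gives the authors' FPKM values per gene and library. Its header names no unit. FPKM was inferred, since values were not whole and sums differed between libraries. The depth estimates assume this unit and do not test it. They take the most frequent product of value and length, among low values of 3644 single-exon genes over 1000 bases, as a single fragment. Bowtie, BWA, STAR, Cufflinks, RSEM and kallisto, and the build hg19, are named without roles or versions per the submitters' processing notes. The loci matched GRCh38 (39321 of 39331 identifiers shared with GENCODE 29, starts counted from 0) and are given counted from 1.

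The filter kept genes that reached 1 FPKM in 3 or more libraries. Values entered limma (version 3.58.1, R 4.3.3; trended, robust) as log2(FPKM + 1), two-sided, Benjamini-Hochberg over all 14475 genes, threshold 0.05. This scale understates changes of low genes. Intervals are unadjusted. An exact permutation test of CAPG gave p = 0.1, the smallest that 3 against 3 allows. The fit was also run on simulated data, drawn as independent normal values per gene and library. Such data hold no shift shared by the genes of a library, and no power is inferred from them here.

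Members and lists were chosen with earlier results of these data known. The naming rule was: per-library values for members past the threshold, members with an unadjusted p under 0.05 and the most abundant member of each subfamily; called genes among the other cell death genes; and CAPG. A result that this rule names is not reported here. No member passed, so the 4 printed promoters were chosen after values were seen, as was TNFRSF10C. Promoters are from RefSeq (GRCh38.p14); BCL2L2, BIK, CASP10, MCL1, TNFRSF10A, TNFRSF10B, TNFRSF10D and TRADD had no entry. Alternatives were other pseudocounts, filters, scalings, variance models, a replicate block, each library left out, and a length and G+C correction on the longest GENCODE 29 transcript.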

Additional observations from a re-analysis of the deposited data

How the results depend on the processing

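The number of calls over all genes (534 higher, 691 lower) was sensitive to the fit. The members' count was 0 as reported, so settings that lose calls could not lower it. Leaving out 1 library gave 76 to 412 higher and 147 to 588 lower genes, 0 members in either direction, and 0 to 1 higher and 0 to 1 lower of the other cell death genes. Without a filter on low values 53 genes were higher and 100 lower, and 0 and 0 of the other cell death genes. Limma without trend and robust fitting gave 354 higher genes, and 1 and 0 of the other cell death genes. The length and G+C correction gave 1506 higher and 1224 lower genes (55.2% of calls higher, against 43.6%), 8 and 2 members, and 7 higher other cell death genes. Quantile normalization gave 1 higher member. The cause was not tested in these cases.

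No pairing by replicate number was seen in the values: deviations from the group means correlated at -0.043, 0.009 and -0.023 between same-numbered libraries. These correlations cannot show that the libraries were unpaired, since each group mean rests on few libraries. With the replicate number as a block 69 genes were higher and 142 lower, with 0 members and 0 and 0 of the other cell death genes. No library correlated best with the library of its own number.

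Members near 0 changed sign without being called in any fit. Over the 6 fits that left out a library, FADD ranged from -0.103 to 0.057 (0.038 without untreated replicate 1), BOK from -0.139 to 0.012, BCL2L1 from -0.095 to 0.001, CASP8 from -0.037 to 0.069 and BMF from -0.186 to 0.064. CASP8 was at -0.037 with equal totals and -0.014 without untreated replicate 1. BMF was at 0.025 with quantile normalization, 0.005 without untreated replicate 2 and 0.017 after the length and G+C correction. CAPG kept its call in all 16 settings. Depth limits statements on TNFSF10 and BCL2A1, which lay near or under the level of 3 fragments.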

Other observations

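MLKL, which encodes the pore-forming executioner of necroptosis, was at 3.75 ± 0.552 FPKM without and 5.44 ± 0.515 FPKM with doxycycline (SD, n = 3 each), with groups that did not overlap. It missed the threshold (log2 change 0.44, SE 0.12, limma adjusted p = 0.0549). RIPK3, the kinase that activates MLKL, had means of 0.0112 and 0.0493 FPKM, under the level of 3 fragments in a transcript of 1 kb. Both genes were singled out after their values were seen.

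BIRC5, which encodes survivin, an inhibitor of apoptosis protein of dividing cells, was at means of 75.1 and 90.7 FPKM, and VDAC1, a channel of the outer mitochondrial membrane, at 147 and 172 FPKM. Their groups did not overlap, and neither passed the threshold (limma adjusted p = 0.106 and 0.0966). The groups did not overlap in 38.1% of the 42 tested other cell death genes, beside 34.5% of all tested genes. The related genes VDAC2 (means of 59.3 and 63.4 FPKM) and VDAC3 (97.7 and 110 FPKM) had limma adjusted p = 0.685 and 0.254. BIRC5 and VDAC1 were also singled out after their values were seen.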
